A study of Homo sapiens with 12 samples.

Results

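CCN1, CCN2, ANKRD1, AMOTL2, THBS1, ACTA2, TAGLN, VCL and SRF, 9 genes that the transcriptional regulators YAP and SRF are known to drive, were followed across 4 groups of cell samples that the labels call PC3, a prostate cancer line. They were chosen by name, as 9 of 19775 genes measured, and the array carried 22 probe sets with a single one of these symbols. Each gene is given by its brightest probe set (highest mean log2 signal on the arrays compared), and the others are given where they differ from it. RNA was measured on Affymetrix 3-prime expression arrays, and a signal is the deposited linear intensity of a probe set. The groups, with 3 samples each, were cells given both drugs (2.5 µM Wee1 inhibitor II followed 24 h later by 40 nM 17-AAG), cells given 2.5 µM Wee1 inhibitor II alone, cells given 40 nM 17-AAG alone, and control cells, labelled untreated and given vehicle according to the protocol. All were harvested 48 h after the time of 17-AAG addition. Wee1 is the kinase that restrains CDK1 before mitosis, and 17-AAG blocks the chaperone Hsp90. The study's title names sensitisation of prostate cancer cells to Hsp90 inhibition by blocking Wee1. Control replicate 2, which the submitters removed for weak signal, was left out, so 11 arrays were compared, with 2 of control and 3 of each treated group.

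YAP and its relative TAZ (WWTR1) enter the nucleus when the Hippo kinases are inactive and bind DNA through TEAD proteins. CCN1, CCN2, ANKRD1 and AMOTL2 are among their best known direct targets. SRF binds the CArG box and works with the actin-sensing cofactors MRTFA and MRTFB, or with ternary complex factors such as ELK1 that answer to ERK. Its targets include cytoskeletal genes such as ACTA2, TAGLN and VCL, and SRF itself. Both arms respond to actin tension, and CCN1, CCN2 and THBS1 are known to respond to either.

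The labels and the arrays did not match in every respect, and in bulk RNA fewer cells of a kind and less RNA per cell cannot be told apart. On the 11 arrays CTNNA1 and STAT3, which PC3 cells lack, had signals of 2559 to 5040 and 819 to 1296, while control replicate 2 had 1.57 and 7.54. Both moved in the direction of CCN1 and CCN2, with a summed signal of 3468 to 3679 with both drugs, 5873 to 6278 with Wee1 inhibitor II, 3533 to 3631 with 17-AAG and 3720 to 3811 in control, and both were called higher with Wee1 inhibitor II than in control and negative in the interaction. All 6 measured pigment cell markers had signals of at least 100 on each of the 11 arrays. Of 6 measured prostate and epithelial markers only KRT18 did (453 to 650). The reverse held on control replicate 2, where 1 pigment marker and 4 prostate and epithelial markers reached 100. There HOXB13 had 2087 and EPCAM 1096, against at most 11.3 and 26.2 on the 11 arrays, and MLANA 2.67 against at least 2865. Control replicate 2 thus differed from the other 11 in cell markers and not only in strength of signal. The summed signal of the pigment markers lay at 46545 to 48136 with both drugs, 25705 to 28256 with Wee1 inhibitor II, 39321 to 44641 with 17-AAG and 31680 to 33240 in control. The summed signal of 8 fibroblast markers lay at 795 to 866 with both drugs, 450 to 499 with Wee1 inhibitor II, 1806 to 1945 with 17-AAG and 1101 to 1250 in control. That sum is mostly 1 gene, LUM (294 to 1819), and the others reached at most 109 (COL1A1). The list did not move as a whole with the sum. Its median log2 fold change against control was 0.18 with Wee1 inhibitor II, 0.28 with 17-AAG and 0.02 with both drugs. The part of these shifts in the results below was not tested. DNAJB1, a heat shock gene that Hsp90 inhibitors are known to raise, stood at 510 with 17-AAG against 1192 in control (-1.22 ± 0.09, adjusted p = 0.000375); it was picked after its values were seen, and groups are named here as labelled. Log2 signals of all probe sets correlated at 0.924 to 0.936 between replicates, and at 0.825 to 0.833 between control replicate 2 and the others. Against control, all genes had a median log2 fold change of 0.11 for both drugs, 0.12 for Wee1 inhibitor II and 0.01 for 17-AAG. Nothing says that replicates were separate cultures, so p-values measure only the spread between these samples.

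With Wee1 inhibitor II alone, 4 of the 9 genes rose and none fell: CCN1 4.12-fold, CCN2 3.27-fold, AMOTL2 2.72-fold and ACTA2 2.19-fold. Calls are adjusted p-values under 0.05 in limma, and 24.9% of all genes were called in this comparison, 14.5% higher and 10.3% lower. With both drugs, CCN1 and CCN2 lay close to control, ACTA2 stayed higher and THBS1 was lower. The interaction, which is the log2 response to both drugs minus the sum of the responses to each, was called for CCN1 and CCN2, both negative. Of all genes 11.8% had a called interaction, 4.82% positive and 6.97% negative. Without the dimmest 40% of genes 3558 of 11865 had one, 1561 positive and 1997 negative, which is a larger share. VCL, TAGLN, ANKRD1 and SRF passed in no comparison.

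**Figure D1:**
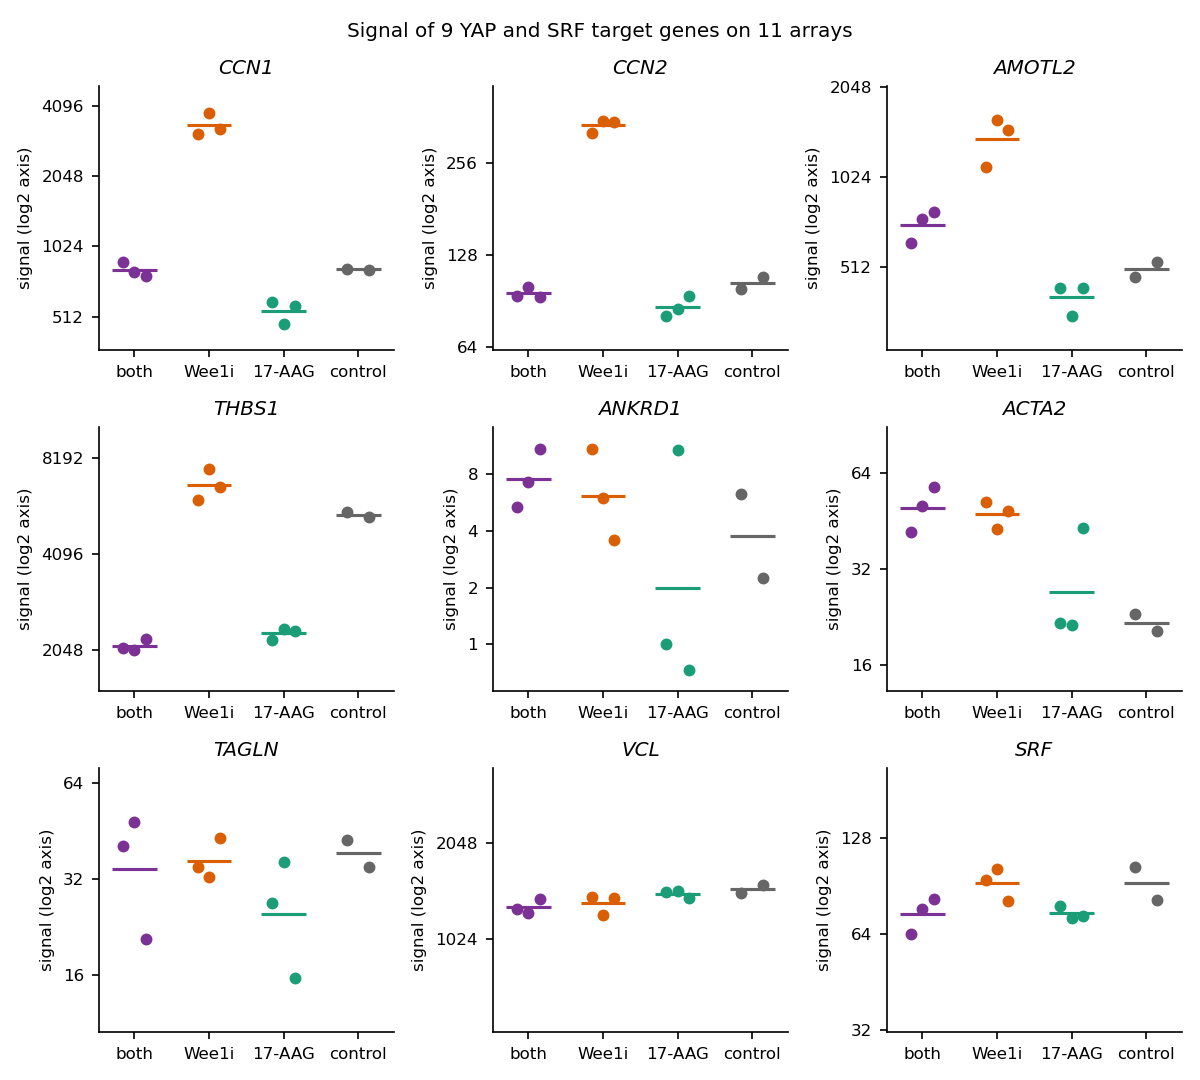
Signal of each gene's main probe set (log2 axis) on each of the 11 arrays, by group, with lines at the geometric mean. CCN1, CCN2 and AMOTL2 are highest on all 3 arrays with Wee1 inhibitor II, THBS1 separates the 2 groups without 17-AAG from those with it, and VCL and SRF stay within a narrow range.

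CCN1 (formerly CYR61) codes for a secreted matrix protein that binds integrins. Its signals were 874, 796 and 761 with both drugs, 3100, 3820 and 3240 with Wee1 inhibitor II, 590, 477 and 568 with 17-AAG, and 821 and 814 in control. The 3 Wee1 inhibitor II arrays stood above all others and the 3 17-AAG arrays below all others, while the arrays with both drugs spanned those of control. CCN1 rose by 2.04 ± 0.13 (log2, SE) with Wee1 inhibitor II (adjusted p = 5.97e-05) and changed by -0.59 ± 0.13 with 17-AAG (adjusted p = 0.0177). With both drugs it stood at -0.02 ± 0.13 against control (adjusted p = 0.953, with a 95% interval of -0.32 to 0.28). Against Wee1 inhibitor II alone it was lower by 2.06 on the log2 scale with both drugs (-2.06 ± 0.12, adjusted p = 2.79e-05), and against 17-AAG alone higher by 0.58 ± 0.12 (adjusted p = 0.0107). The sum of the single responses was 1.45, so the interaction was -1.47 ± 0.17 (adjusted p = 0.00241). The second CCN1 probe set, 210764_s_at, gave the same calls in all 7 comparisons when every probe set was tested, with 1.83 ± 0.15 for Wee1 inhibitor II and -1.21 ± 0.20 for the interaction. The fall with 17-AAG lost its call when array medians were set equal (-0.58, adjusted p = 0.0587), without control replicate 1 (-0.59, adjusted p = 0.0902) and without control replicate 3 (-0.60, adjusted p = 0.0838). Equal medians also ended the call of both drugs against 17-AAG alone (0.37, adjusted p = 0.141). With control replicate 2 included neither the rise with Wee1 inhibitor II (1.49, adjusted p = 0.0535) nor the interaction (-0.91, adjusted p = 0.544) passed.

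CCN2 (formerly CTGF) codes for connective tissue growth factor, a relative of CCN1. It had signals of 94.5, 101 and 93.6 with both drugs, 322, 353 and 349 with Wee1 inhibitor II, 81.2, 85.3 and 94.2 with 17-AAG, and 99.6 and 109 in control. Only the Wee1 inhibitor II arrays stood apart, and the other 8 arrays lay within 81.2 to 109. CCN2 rose by 1.71 ± 0.10 with Wee1 inhibitor II (adjusted p = 4.50e-05) and was at -0.27 ± 0.10 with 17-AAG (adjusted p = 0.107). It stood at -0.12 ± 0.10 with both drugs (adjusted p = 0.458, 95% interval -0.34 to 0.11) and at -1.82 ± 0.09 against Wee1 inhibitor II alone (adjusted p = 1.75e-05). The single responses summed to 1.44 and the interaction was -1.56 ± 0.13 (adjusted p = 0.000868). The value with 17-AAG was called without the dimmest 40% of genes (adjusted p = 0.0407) and with signals below 32 set to 32 (adjusted p = 0.0489). On control replicate 2 the CCN2 signal was 1220, above all 11 arrays, and with that array included neither the rise with Wee1 inhibitor II (0.52, adjusted p = 0.755) nor the interaction (-0.37, adjusted p = 0.92) passed.

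AMOTL2, which codes for a scaffold that binds YAP and holds it back, had signals of 617, 741 and 783 with both drugs, 1110, 1590 and 1470 with Wee1 inhibitor II, 438, 351 and 438 with 17-AAG, and 476 and 535 in control. The groups did not overlap in the order Wee1 inhibitor II, both drugs, control and 17-AAG. AMOTL2 rose by 1.44 ± 0.19 with Wee1 inhibitor II (adjusted p = 0.00103) and was higher with both drugs than with 17-AAG alone (0.80 ± 0.17, adjusted p = 0.0116) and lower than with Wee1 inhibitor II alone (-0.95 ± 0.17, adjusted p = 0.0065). Both drugs against control gave 0.49 ± 0.19 (adjusted p = 0.0886) and 17-AAG against control -0.31 ± 0.19 (adjusted p = 0.331). AMOTL2's interaction of -0.64 ± 0.25 did not pass (adjusted p = 0.152). With a trended and robust prior, which shares the spread among genes of like signal, the interaction passed (adjusted p = 0.0282) and so did both drugs against control (adjusted p = 0.0132). Both drugs against control also passed without the dimmest 40% of genes (adjusted p = 0.0367) and without Wee1 inhibitor II replicate 1 (adjusted p = 0.0499), and with equal array medians the difference from 17-AAG alone did not (0.60, adjusted p = 0.0641).

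**Figure D2:**
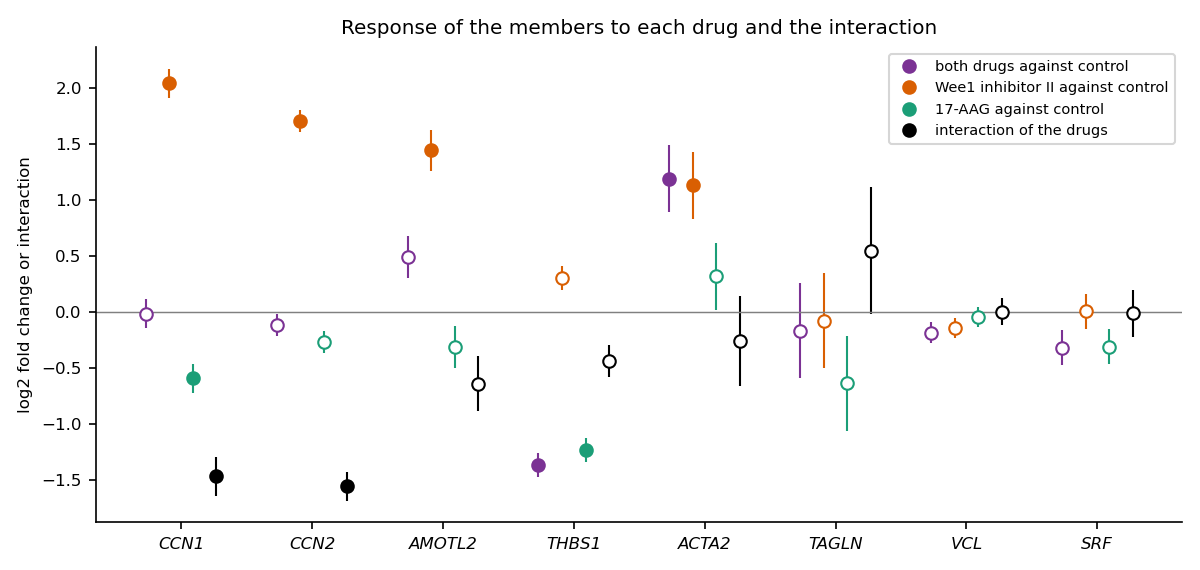
Log2 fold change against control and interaction for each gene, with bars of 1 SE, filled where the adjusted p was under 0.05 (ANKRD1, whose signals lay below 11 on every array, is left out for its wide error). CCN1 and CCN2 rise with Wee1 inhibitor II, sit near 0 with both drugs and have called interactions, and THBS1 falls with 17-AAG with or without Wee1 inhibitor II.

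The proximal promoters of CCN2, AMOTL2, THBS1, ANKRD1 and SRF are printed because YAP and SRF targets are known through their TEAD and SRF sites. ANKRD1 and SRF were called in no comparison, and the ACTA2 and VCL windows are not printed. RefSeq windows (GRCh38.p14) of 300 bases, from 250 before to 50 after an annotated start, were at hand for 7 of the 9 genes in 10 windows; CCN1 and TAGLN had none in the table. The TEAD core GGAATG, searched on both strands, was found in 14% of all 35116 windows, the CArG box in 1.29% and the AP-1 core TGANTCA in 7.71%. In the windows below, written 5′ to 3′ on the gene's strand, capitals mark GGAATG (or its complement CATTCC) and the CArG box. The CCN2 window (chr6:131951323-131951622, minus strand) holds 3 GGAATG matches, starting at -169, -104 and -95 from the start. The AMOTL2 window (chr3:134374398-134374697, minus strand) holds 1, at -69 on the opposite strand, and its other annotated start has none. The THBS1 window (chr15:39580829-39581128, plus strand) holds 1 at -46, and the ANKRD1 window (chr10:90921038-90921337, minus strand) holds 2 at -220 and -128. The SRF window (chr6:43171019-43171318, plus strand) holds 2 CArG boxes, at -30 and -10, and no GGAATG. Single GGAATG matches lie in 1 of 2 ACTA2 windows and in the VCL window, and TGANTCA occurs once among these windows, in ANKRD1. Only full matches to CCWWWWWWGG, where W is A or T, counted as CArG boxes. The ACTA2 window with GGAATG also holds CCCTATATGG and CCTTGTTTGG, each 1 base off this pattern and so not counted.
CCN2: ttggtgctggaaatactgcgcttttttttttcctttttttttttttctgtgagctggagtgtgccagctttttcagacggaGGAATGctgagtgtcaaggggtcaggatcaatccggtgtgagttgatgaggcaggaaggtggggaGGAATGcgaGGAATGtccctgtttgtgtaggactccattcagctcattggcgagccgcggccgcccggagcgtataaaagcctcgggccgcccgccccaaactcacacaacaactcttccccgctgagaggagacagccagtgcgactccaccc
AMOTL2: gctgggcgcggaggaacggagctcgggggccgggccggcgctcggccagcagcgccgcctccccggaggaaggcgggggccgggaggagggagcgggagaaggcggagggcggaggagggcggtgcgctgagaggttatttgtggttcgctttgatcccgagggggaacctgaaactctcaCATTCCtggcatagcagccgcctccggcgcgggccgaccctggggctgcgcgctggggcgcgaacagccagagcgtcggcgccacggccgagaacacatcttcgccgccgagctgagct
THBS1: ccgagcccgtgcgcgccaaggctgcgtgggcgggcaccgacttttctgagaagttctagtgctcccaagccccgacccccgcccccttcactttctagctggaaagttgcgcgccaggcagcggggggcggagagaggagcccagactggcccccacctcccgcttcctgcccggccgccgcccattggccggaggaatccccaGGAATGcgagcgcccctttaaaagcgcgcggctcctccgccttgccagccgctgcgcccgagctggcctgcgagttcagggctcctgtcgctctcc
ANKRD1: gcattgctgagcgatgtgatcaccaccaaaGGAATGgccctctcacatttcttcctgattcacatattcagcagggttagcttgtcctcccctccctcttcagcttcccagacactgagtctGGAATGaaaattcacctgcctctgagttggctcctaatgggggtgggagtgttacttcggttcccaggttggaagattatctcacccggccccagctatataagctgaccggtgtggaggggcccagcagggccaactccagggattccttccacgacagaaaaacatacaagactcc
SRF: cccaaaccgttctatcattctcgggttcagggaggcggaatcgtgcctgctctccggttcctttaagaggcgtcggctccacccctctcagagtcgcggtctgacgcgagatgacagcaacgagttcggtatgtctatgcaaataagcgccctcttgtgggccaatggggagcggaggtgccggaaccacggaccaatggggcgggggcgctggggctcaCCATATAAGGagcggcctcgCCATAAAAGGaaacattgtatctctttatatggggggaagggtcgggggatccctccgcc
A match is a description of these letters. Of the genes with a window, CCN2 (3 GGAATG matches), AMOTL2 (1) and ACTA2 (1 in 1 of 2 windows) rose with Wee1 inhibitor II. ANKRD1 (2), THBS1 (1), VCL (1) and SRF (2 CArG boxes) did not pass on their main probe sets. However, THBS1 was called higher on 3 of its 7 probe sets, and ANKRD1, at most 10.9, was too dim to read. Stretches that differ from the CArG box in 1 base, as in ACTA2, are not in these counts of matches.

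THBS1 codes for thrombospondin 1, a secreted glycoprotein that activates latent TGF-beta and restrains new vessels. Its brightest probe set, 201110_s_at, had signals of 2070, 2050 and 2220 with both drugs, 6030, 7590 and 6650 with Wee1 inhibitor II, 2200, 2390 and 2350 with 17-AAG, and 5540 and 5340 in control. The 6 arrays with 17-AAG reached 2390 at most, and the 5 without it had at least 5340. THBS1 fell with 17-AAG (-1.24 ± 0.11, adjusted p = 0.000562) and with both drugs (-1.37 ± 0.11, adjusted p = 7.35e-05), and both drugs against Wee1 inhibitor II gave -1.67 ± 0.10 (adjusted p = 3.08e-05). Both drugs against 17-AAG alone gave -0.13 ± 0.10 (adjusted p = 0.422). With Wee1 inhibitor II it stood at 0.31 ± 0.11 (adjusted p = 0.0765), which was called with a trended and robust prior (adjusted p = 0.00871), without the dimmest 40% of genes (adjusted p = 0.0289), with signals below 32 set to 32 (adjusted p = 0.0454), as the mean of 7 probe sets (0.39, adjusted p = 0.0367) and without Wee1 inhibitor II replicate 1 (0.39, adjusted p = 0.0387). The THBS1 interaction of -0.44 ± 0.15 (adjusted p = 0.0976) passed with the trended prior (adjusted p = 0.01) and without the dimmest genes (adjusted p = 0.0349).

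The 7 THBS1 probe sets agreed on 17-AAG and differed on both drugs against 17-AAG and on the interaction. When every probe set was tested, all 7 were lower with 17-AAG than in control (-2.12 to -0.67), and all 7 were higher with Wee1 inhibitor II than with 17-AAG. With Wee1 inhibitor II against control 3 of 7 rose, the largest by 1.26 ± 0.10 on 201108_s_at (adjusted p = 0.000236). That probe set had signals of 903, 1010 and 888 with both drugs, 1910, 1760 and 1820 with Wee1 inhibitor II, 484, 473 and 486 with 17-AAG, and 788 and 746 in control. There the arrays with both drugs stood above control, whereas on 201110_s_at they stood at the bottom. The difference from control on 201108_s_at was not called (0.28 ± 0.10, adjusted p = 0.0845). Against control, both drugs was called lower on 5 of 7 probe sets and higher on none. Against Wee1 inhibitor II alone it was called lower on 6 of 7 and higher on none. Both drugs against 17-AAG was called higher on 3 of 7 probe sets, 201108_s_at (0.95 ± 0.09), 201107_s_at (0.87 ± 0.15) and 239336_at (1.11 ± 0.15), and lower on none. The interaction was called negative on 201109_s_at (-0.81 ± 0.19, adjusted p = 0.0444) and 235086_at (-0.95 ± 0.17, adjusted p = 0.0189) and positive on 239336_at (1.33 ± 0.22, adjusted p = 0.0144). The mean of the probe sets turned the sign of both drugs against 17-AAG to 0.43 (adjusted p = 0.0214). Which transcript ends these probe sets read was not analysed here. The gap between the 3-prime and 5-prime probe sets of ACTB, a measure of RNA or labelling quality, was 0.96 ± 0.05 (log2, SD, n = 3) with both drugs, 0.68 ± 0.09 (n = 3) with Wee1 inhibitor II, 0.96 ± 0.08 (n = 3) with 17-AAG and 0.69 ± 0.03 (n = 2) in control, and its part in these differences was not tested.

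**Figure D3:**
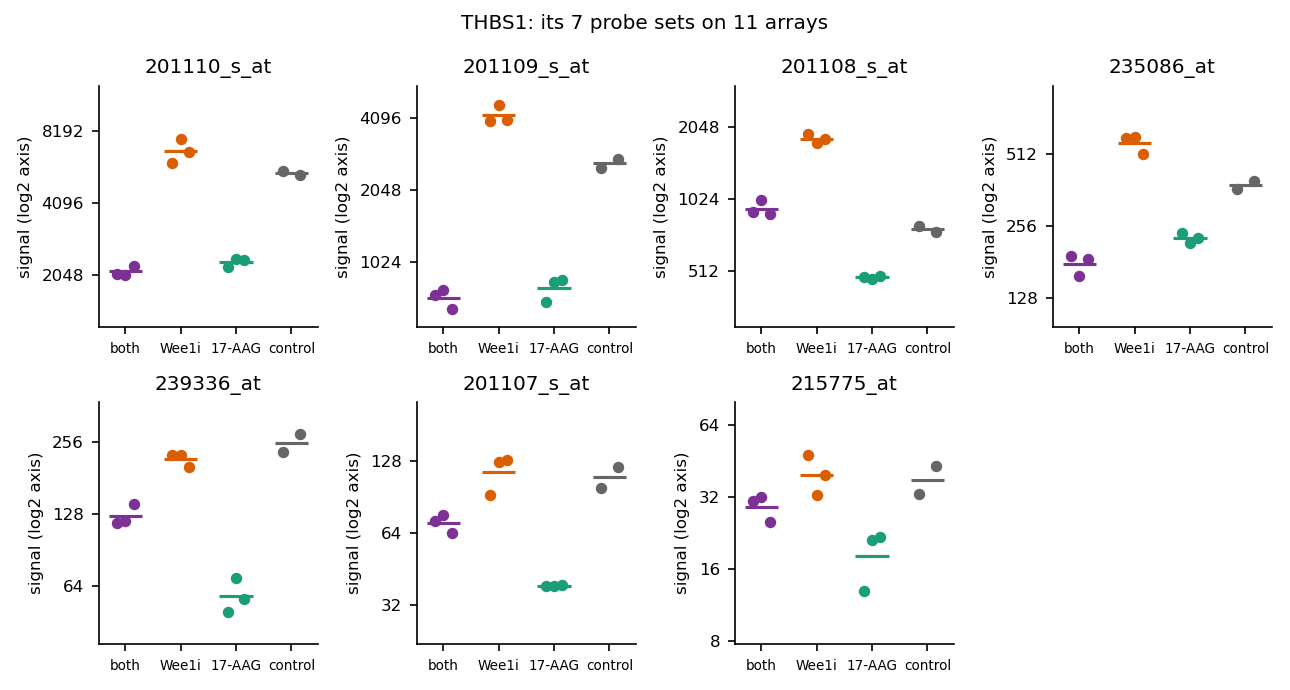
Signal of the 7 THBS1 probe sets (log2 axis) on each array, by group, with lines at the geometric mean. All 7 are lower with 17-AAG than in control, and the level with both drugs is near that with 17-AAG on 201110_s_at and 201109_s_at but above it on 201108_s_at, 239336_at and 201107_s_at.

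ACTA2, the smooth muscle actin gene, was dim, with signals of 41.8, 50.4 and 57.9 with both drugs, 52.1, 42.7 and 48.6 with Wee1 inhibitor II, 21.7, 21.3 and 43 with 17-AAG, and 23.1 and 20.4 in control. The 6 arrays with Wee1 inhibitor II lay at 41.8 or above and the 5 without it at 23.1 or below, except 17-AAG replicate 3 at 43. ACTA2 rose by 1.13 ± 0.30 with Wee1 inhibitor II (adjusted p = 0.026) and by 1.19 ± 0.30 with both drugs (adjusted p = 0.0186). With 17-AAG it was at 0.32 ± 0.30 (adjusted p = 0.567). The first call was lost without control replicate 1 (1.22, adjusted p = 0.0848), control replicate 3 (1.04, adjusted p = 0.134), Wee1 inhibitor II replicate 1 (1.07, adjusted p = 0.0724) or replicate 3 (1.12, adjusted p = 0.0659), and with signals below 32 set to 32 (0.57, adjusted p = 0.0521). The second was lost without control replicate 1 (1.28, adjusted p = 0.0643), control replicate 3 (1.10, adjusted p = 0.105) or both drugs replicate 3 (1.08, adjusted p = 0.0581). The mean of the 3 ACTA2 probe sets, of which the other pair lay near the bottom of the scale, ended both (0.66 and 0.91). Without 17-AAG replicate 3, ACTA2 was also called against 17-AAG for both drugs (1.20, adjusted p = 0.00369) and for Wee1 inhibitor II (1.15, adjusted p = 0.00425), as they were with a trended and robust prior and without the dimmest 40% of genes. All 8 smooth muscle markers, among them MYH11, DES and CNN1, were measured. Their summed signal was 166 to 187 with both drugs, 191 to 249 with Wee1 inhibitor II, 188 to 251 with 17-AAG and 213 to 214 in control, and none but SMTN, at most 109, reached 100.

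TAGLN, which codes for the actin-bundling protein transgelin, was also dim, at 40.4, 48.1 and 20.7 with both drugs, 34.8, 32.3 and 43 with Wee1 inhibitor II, 26.8, 36.2 and 15.6 with 17-AAG, and 42.4 and 34.8 in control. The groups overlapped throughout, and its fold changes of -0.17 ± 0.42, -0.08 ± 0.42 and -0.64 ± 0.42 for both drugs, Wee1 inhibitor II and 17-AAG against control did not pass (adjusted p = 0.836, 0.929 and 0.393). ANKRD1, a sarcomere-linked nuclear protein gene, never exceeded a signal of 10.9, below the array medians of 17.7 to 23.1, and ranged from 0.733 to 10.7 among the 17-AAG arrays alone. Its values carry errors of about 1 log2 unit (0.71 ± 1.11 for Wee1 inhibitor II, adjusted p = 0.721). Only without 17-AAG replicate 2 was it called, for both drugs against 17-AAG (3.13, adjusted p = 0.0147) and Wee1 inhibitor II against 17-AAG (2.84, adjusted p = 0.0202). Genes with a mean signal below 16 had a median SD within groups of 1.01 (log2), against 0.08 among the brightest.

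VCL, which codes for vinculin of focal adhesions, was bright and nearly level, at 1270, 1240 and 1370 with both drugs, 1390, 1220 and 1380 with Wee1 inhibitor II, 1440, 1450 and 1380 with 17-AAG, and 1430 and 1510 in control. The 95% intervals of its log2 fold change ran from -0.39 to 0.03 for both drugs, from -0.35 to 0.06 for Wee1 inhibitor II and from -0.25 to 0.17 for 17-AAG against control, so a rise of the size seen for CCN1 or CCN2 with Wee1 inhibitor II lies outside all 3. Its second probe set, 200930_s_at, was too dim to read. On control replicate 2 VCL had a signal of 4610, against 1220 to 1510 on the 11 others. SRF itself had signals of 64, 76.4 and 82.4 with both drugs, 94.6, 102 and 81.4 with Wee1 inhibitor II, 78.5, 71.7 and 72.6 with 17-AAG, and 104 and 81.8 in control. Its fold changes against control were -0.32 ± 0.16, 0.0049 ± 0.16 and -0.31 ± 0.16 for both drugs, Wee1 inhibitor II and 17-AAG (adjusted p = 0.184, 0.987 and 0.242). SRF was called lower with both drugs after quantile normalisation (-0.51, adjusted p = 0.0378) and with equal array medians (-0.51, adjusted p = 0.0422).

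In falling order of level, CCN1 was highest with Wee1 inhibitor II, then in control, with both drugs and with 17-AAG, and of these neighbours both drugs and control did not differ beyond their spread (adjusted p = 0.953). CCN2 had the same order, and neither both drugs and control nor both drugs and 17-AAG differed beyond their spread (adjusted p = 0.458 and 0.294). AMOTL2 was highest with Wee1 inhibitor II, then with both drugs, in control and with 17-AAG, and of the 3 steps only that below Wee1 inhibitor II passed (adjusted p = 0.0065). THBS1 was highest with Wee1 inhibitor II, then in control, with 17-AAG and with both drugs, and only the step between 17-AAG and control passed (adjusted p = 0.000562). For the other 5 genes no neighbouring levels differed beyond their spread.

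Set against the background, 4 of 9 genes were called higher with Wee1 inhibitor II than with 17-AAG (18.7% of all genes called, 10.2% higher, 8.52% lower), namely CCN1, CCN2, AMOTL2 and THBS1. The same 4 were called lower with both drugs than with Wee1 inhibitor II (14.1% of all genes called, 6.84% lower, 7.27% higher). With 17-AAG against control 2 of 9 fell and none rose (16.7% of all genes called, 6.8% lower, 9.93% higher), and with both drugs against control 1 rose and 1 fell (28% of all genes called, 16.7% higher, 11.3% lower). With both drugs against 17-AAG 2 rose, CCN1 and AMOTL2 (19.3% of all genes called, 10.9% higher, 8.43% lower). These comparisons share groups and are not independent of each other. In a fit of the 17-AAG and control arrays alone no gene of 19775 passed in limma (4816 had an unadjusted p under 0.05), with CCN1 at an adjusted p of 0.105 and THBS1 at 0.0606. With equal array medians, 33.4% of the genes called with Wee1 inhibitor II against control were higher, in place of 58.5%, and that share was 40.8% in place of 59.7% for both drugs against control. Against 17-AAG it was 25.2% in place of 56.3% for both drugs and 21.7% in place of 54.4% for Wee1 inhibitor II.

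Over the 11 arrays, CCN1 and CCN2 moved together (Pearson r of log2 signals 0.983), AMOTL2 followed CCN1 (0.938) and CCN2 (0.900), and THBS1 was less close to CCN1 (0.793) and CCN2 (0.805). VCL ran weakly against CCN1 (-0.39). The points share arrays and group structure, so these values are descriptions. Among 8277 other genes with a mean signal of at least 100, the 3 most like CCN1 were NDRG1 (0.988), CAVIN3 (0.988) and CCN2 itself. NDRG1 had group signals of 528 with both drugs, 1146 with Wee1 inhibitor II, 470.4 with 17-AAG and 522 in control. Those most like CCN2 were CTNNA1 (0.993), DEPDC7 (0.991) and NDRG1 (0.987). AMOTL2 was closest to TXNRD2 (0.974), FMN2 (0.971) and the cyclin D1 gene CCND1 (0.971). THBS1 was closest to FOSL1 (0.984), an AP-1 subunit gene at 52.9 with both drugs, 344 with Wee1 inhibitor II, 63.1 with 17-AAG and 170 in control, then to GNG11 (0.981) and TNFRSF12A (0.977). VCL was closest to ADH5 (0.915), COMMD3 (0.911) and SLC25A46 (0.909).

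Other known YAP and TEAD targets rose with Wee1 inhibitor II in larger number than they fell. Of 23 measured of 25 listed, 14 rose (60.9%) and 1 fell (4.35%), against 14.5% and 10.3% of all genes. The median log2 fold change was 1.23 against 0.12 over all genes. CRIM1, a membrane protein that binds growth factors, rose by 1.45 ± 0.10 (adjusted p = 7.99e-05), MYOF, a membrane repair gene, by 1.23 ± 0.11 (adjusted p = 0.000253), and AJUBA, a LIM protein that binds LATS kinases, by 1.76 ± 0.11 (adjusted p = 5.97e-05). RBMS3, an RNA-binding protein gene, rose by 2.60 ± 0.15 (adjusted p = 4.70e-05). The 1 that fell was BIRC5, the survivin gene, which also follows the cell cycle (-0.36 ± 0.09, adjusted p = 0.0256), a call that ended without control replicate 1 (-0.41), control replicate 3 (-0.31), Wee1 inhibitor II replicate 1 (-0.35) or replicate 3 (-0.34). Leaving out any array gave 13 to 14 higher and 0 to 2 lower, and the mean of each gene's probe sets 9 higher and none lower. With 17-AAG 3 rose (13%) and 6 fell (26.1%), against 9.93% and 6.8% of all genes (median 0.19 against 0.01 over all genes). Among those that fell were IGFBP3 at -1.25 ± 0.17 (adjusted p = 0.00286) and MYOF at -1.13 ± 0.11 (adjusted p = 0.000874). The 6 that fell became 2 without control replicate 1 or control replicate 3 and 3 without 17-AAG replicate 1 or 17-AAG replicate 3. With both drugs 7 rose (30.4%) and 3 fell (13%), against 16.7% and 11.3% of all genes (median 0.37 against 0.11). RBMS3 stood at 2.75 ± 0.15 (adjusted p = 1.72e-05), FSTL1 at 1.95 ± 0.12 (adjusted p = 2.28e-05) and BIRC5 at -2.22 ± 0.09 (adjusted p = 9.46e-06). The 7 that rose became 4 without control replicate 1 or both drugs replicate 2, and 3 with equal array medians.

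The interaction was called for 10 of these 23 genes (43.5%) and was negative in all 10, against 6.97% negative and 4.82% positive of all genes. Its median was -0.81 against -0.03 over all genes. Without the dimmest 40% of genes, 1997 of 11865 genes had a called negative interaction and 1561 a positive one, larger shares than over all genes. ARHGAP29 had signals of 39.8 with both drugs, 129 with Wee1 inhibitor II, 40.2 with 17-AAG and 30.1 in control, and an interaction of -2.12 ± 0.29 (adjusted p = 0.00398). RBMS3, by contrast, stood at 149, 134, 78 and 22.2 in the same groups, so its interaction of -1.67 ± 0.20 (adjusted p = 0.00248) belonged to a gene that both drugs raised. BIRC5 had 407, 1482, 1426 and 1902 and an interaction of -1.45 ± 0.13 (adjusted p = 0.000961). With any array left out 7 to 10 were called negative and at most 1 positive, and with the probe sets of each gene averaged 3 were called negative. Averaging all probe sets of a gene ended the call of the interaction for RBMS3 (-0.78, adjusted p = 0.279), ARHGAP29 (-1.54, adjusted p = 0.337), AJUBA (-1.13, adjusted p = 0.218) and MYOF (-0.61, adjusted p = 0.505).

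**Figure D4:**
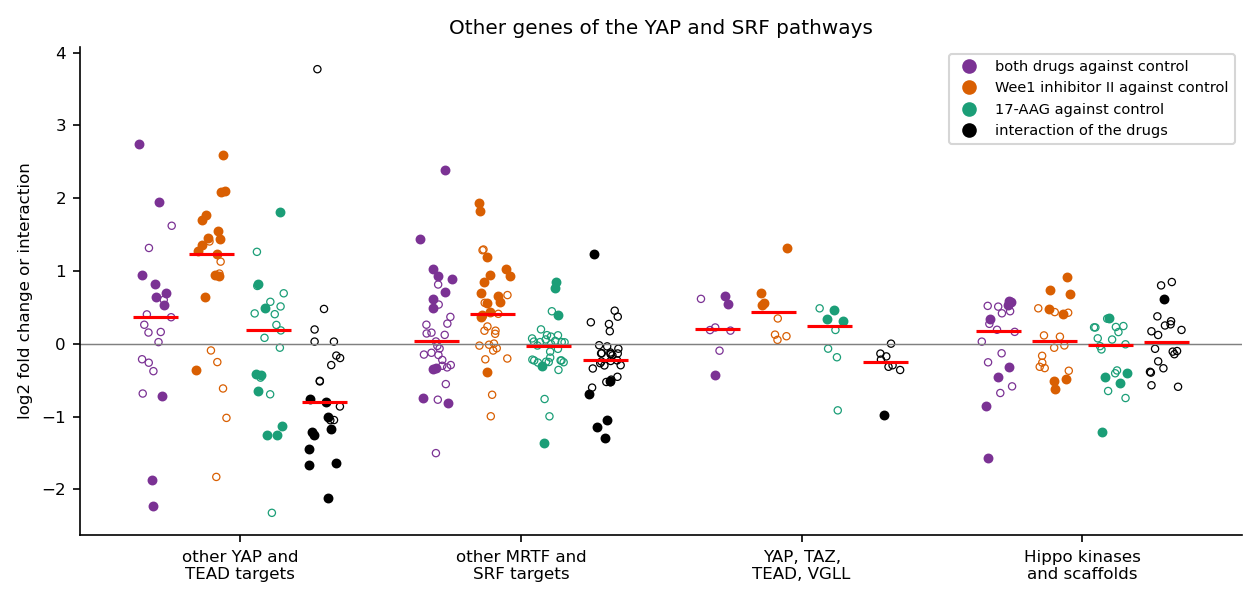
Log2 fold change against control and interaction of each measured gene in 4 pathway lists, filled where the adjusted p was under 0.05, with red lines at list medians. Other YAP and TEAD targets lie mostly above 0 with Wee1 inhibitor II (median 1.23) and below 0 in the interaction (median -0.81).

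Among 33 measured of 38 listed contractile and cytoskeletal targets of MRTF and SRF, 14 rose and 1 fell with Wee1 inhibitor II (median 0.41, against 0.12 over all genes, of which 14.5% rose and 10.3% fell). With 17-AAG 3 rose (9.09%) and 2 fell (6.06%), close to the 9.93% and 6.8% of all genes (median -0.02 against 0.01), and each count became 1 without 17-AAG replicate 1 or 17-AAG replicate 3. With both drugs 8 rose (24.2%) and 4 fell (12.1%), against 16.7% and 11.3% of all genes (median 0.03 against 0.11), and 2 fell without control replicate 1 or control replicate 3. CSRP1, a LIM protein of actin fibres, rose by 1.94 ± 0.11 with Wee1 inhibitor II (adjusted p = 4.50e-05) and by 1.44 ± 0.11 with both drugs (adjusted p = 6.39e-05). TGFB1I1, the focal adhesion gene also called HIC-5, rose by 1.83 ± 0.11 (adjusted p = 5.45e-05) and LIMA1, an actin cross-linker, by 1.19 ± 0.08 (adjusted p = 7.99e-05) with Wee1 inhibitor II. TPM1, a tropomyosin gene, had signals of 965 with both drugs, 2682 with Wee1 inhibitor II, 664 with 17-AAG and 1700.0 in control, and fell with 17-AAG (-1.36 ± 0.09, adjusted p = 0.000226). TPM2, its relative, was highest with both drugs (324, against 127, 67.3 and 62). With equal array medians, 6 of the 33 rose and 2 fell with Wee1 inhibitor II. Without the dimmest 40% of genes, 1997 of 11865 genes had a called negative interaction and 1561 a positive one, larger shares than over all genes. In this list the interaction was called negative for 5 (15.2%) and positive for 1, TPM2 (3.03%), against 6.97% and 4.82% of all genes. It was called negative for 2 without control replicate 1 or Wee1 inhibitor II replicate 2, for 3 when any 1 of 6 other arrays was left out, and for 1 with equal array medians. TPM2 lost its call when any 1 of 6 arrays was left out, among them both controls (1.28, adjusted p = 0.0728 without control replicate 1 and 1.20, adjusted p = 0.0843 without control replicate 3).

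Of the regulators, WWTR1 (TAZ) had signals of 3591 with both drugs, 5119 with Wee1 inhibitor II, 4341 with 17-AAG and 3149 in control, and rose with Wee1 inhibitor II (0.70 ± 0.08, adjusted p = 0.000668) and with 17-AAG (0.46 ± 0.08, adjusted p = 0.0075). WWTR1 also had a called interaction (-0.97 ± 0.11, adjusted p = 0.00197), and with both drugs it stood at 0.19 ± 0.08 (adjusted p = 0.133). The mean of its probe sets did not pass with 17-AAG (0.24, adjusted p = 0.173). YAP1 did not pass against control (0.35 ± 0.12 for Wee1 inhibitor II, adjusted p = 0.064; 0.18 ± 0.12 for both drugs, adjusted p = 0.319), but for Wee1 inhibitor II it did with quantile normalisation (0.41, adjusted p = 0.0398), a trended and robust prior (adjusted p = 0.00902), a floor of 32 (adjusted p = 0.0433) and without the dimmest 40% of genes (adjusted p = 0.0234). TEAD1 rose in all 3 treated groups (0.66 ± 0.08 with both drugs, 0.57 ± 0.08 with Wee1 inhibitor II and 0.31 ± 0.08 with 17-AAG), and with equal array medians the calls for Wee1 inhibitor II (0.34, adjusted p = 0.0843) and 17-AAG (0.32, adjusted p = 0.143) were lost. The TEAD1 call for 17-AAG was also lost when any 1 of 8 arrays was left out, both controls among them. TEAD3, a dim gene, also rose in all 3 treated groups. It stood at 0.55 ± 0.10 with both drugs (adjusted p = 0.00311), 0.53 ± 0.10 with Wee1 inhibitor II (adjusted p = 0.00498) and 0.34 ± 0.10 with 17-AAG (adjusted p = 0.0458). The TEAD3 call for 17-AAG held in only 3 of 21 alternatives. With equal array medians its value for both drugs did not pass (0.36, adjusted p = 0.104). TEAD2 passed in no comparison of the main fit, but its 0.62 with both drugs against control was called in 3 of 21 alternatives. TEAD4 fell with both drugs (-0.42 ± 0.13, adjusted p = 0.0416), a call lost without control replicate 1 (-0.38, adjusted p = 0.182), control replicate 3 (-0.46, adjusted p = 0.111) and several other arrays, and it did not pass with either single drug. MRTFA and MRTFB passed in none of the 7 comparisons, with 0.04 ± 0.26 and 0.10 ± 0.14 for Wee1 inhibitor II.

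Of 20 Hippo kinases and scaffolds 5 rose (25%) and 3 fell (15%) with Wee1 inhibitor II, against 14.5% and 10.3% of all genes (median 0.04 against 0.12), which became 3 and 1 without control replicate 1 and 4 and 0 without control replicate 3. PTPN14, a phosphatase that binds YAP, rose by 0.68 ± 0.11 with Wee1 inhibitor II (adjusted p = 0.00299). RASSF1 fell with both drugs (-1.56 ± 0.19, adjusted p = 0.000495) and with 17-AAG alone (-1.22 ± 0.19, adjusted p = 0.00435). The RASSF1 interaction of 0.27 did not pass.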

How the data were processed

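The deposited intensity values are linear, with 1 per probe set and array and 54675 probe sets. Partek 6.5 and RMA are named in the submitters' processing notes. RMA output is on a log2 scale, whereas these values spanned 0.0212 to 17908 and all arrays had the same 2% trimmed mean (150), so log2 was taken without further scaling. Of 41091 probe sets with a single gene symbol, the brightest of each gene was kept, which left 19775 genes. One limma model (version 3.58.1, R 4.3.3) held the 4 group means of all genes (7 residual degrees of freedom, prior 1.12). Adjustment followed Benjamini and Hochberg and covered every gene tested. Errors of fold changes are standard errors of this fit. The fit was also run on simulated normal noise with changes planted in bright genes. That checks the code and does not bear on scaling, dim genes or the cells sampled. The number of arrays limits the precision.

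The genes, pathway lists and tests were chosen with earlier results of these data known. All 9 genes are named. From each list up to 3 called genes with the smallest p in each comparison with control and in the interaction were eligible, some left out for length, and YAP1, WWTR1, MRTFA, MRTFB and TEAD1 to TEAD4 are named whatever their p. One list of regulators is not reported here. Same-numbered samples of different groups correlated at -0.14 to 0.07 in their deviations from group means, so the replicate number was not used as a block. Alternatives covered scaling, the prior, dim genes, probe sets, single arrays and the replicate block; equal medians means each array less its own median log2 signal.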

Additional observations from a re-analysis of the deposited data

Results flagged for a closer look

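The effect of Wee1 inhibitor II differed with and without 17-AAG, by the test of the interaction itself, for CCN1 (-1.47 on the log2 scale) and CCN2 (-1.56). For CCN1 the inhibitor gave 0.58 in the presence of 17-AAG and 2.04 without it, and for CCN2 0.15 and 1.71. Control replicate 2 is outside the comparisons. On it CCN2 had a signal of 1220 against 99.6 and 109 on the other control arrays, and VCL 4610 against 1430 and 1510. That array also differed from the others in cell type markers, and the part of this in its values was not tested.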

How the results depend on the processing

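Of the 9 genes, 4 were called with Wee1 inhibitor II, 2 with 17-AAG and 2 with both drugs against control, 2 with both drugs against 17-AAG, and 2 in the interaction. With control replicate 2 included, these counts were 1, 0, 1, 0 and 0. That array differed from the others in cell type markers, and the part of this in the lost calls was not tested. With equal array medians, 1 was called with 17-AAG against control and 0 with both drugs against 17-AAG. A trended and robust prior gave 4 interactions, averaging probe sets 1 call for both drugs against control, and the fit of 17-AAG and control arrays alone 0. Leaving out single arrays gave 1 to 2 calls with 17-AAG, 1 to 3 with both drugs, and 2 interactions each time. Replicate numbers were not shown to pair samples; with the replicate block 1 gene, THBS1, was called with 17-AAG, CCN1 lost its call (-0.59, adjusted p = 0.0572), and no other member changed its call.

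Signs turned for these values, each called in the main fit or in the alternative. Signs of other values, called in neither, also turned. With control replicate 2 included, MCL1 was at -0.055, AJUBA at -0.21 and JAG1 at -0.22 with both drugs against control, JAG1 at -0.39 and FSTL1 at -0.57 with 17-AAG, FSTL1 at -0.75 and ARHGAP29 at -0.37 with Wee1 inhibitor II, and the interaction at 0.14 for AJUBA and 0.36 for ARHGAP29. With the mean of probe sets, MCL1 was at -0.13 with both drugs, SSH1 at -0.045 and FSTL1 at -0.13 with Wee1 inhibitor II, and THBS1 at 0.43 with both drugs against 17-AAG (its own value of -0.13 was not called). The cause was not tested.

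Over all genes, 4922, 3309, 5539 and 2331 were called with Wee1 inhibitor II, 17-AAG and both drugs against control and in the interaction, and 3816, 2791 and 3696 with both drugs against 17-AAG, both drugs against Wee1 inhibitor II and Wee1 inhibitor II against 17-AAG. In the same order they became 1268, 480, 1856, 119, 542, 389 and 479 with control replicate 2 included. The mean of probe sets gave 3215, 1768, 1099, 2370, 1664 and 2283 (both drugs against control changed less), every probe set 8612 with both drugs against control, the fit of only the arrays compared 2461 with Wee1 inhibitor II, 0 with 17-AAG and 2307 for Wee1 inhibitor II against 17-AAG, equal medians 2204 with 17-AAG and 1255 interactions, the block 1483 interactions and the 60% brighter genes 3558. With 17-AAG 1728 and in the interaction 1361 were called without control replicate 1, and 2158 and 1522 without 17-AAG replicate 1. Without control replicate 3, 3225 were called with Wee1 inhibitor II, 1705 with 17-AAG and 1350 in the interaction. Dim genes (ANKRD1, TAGLN, ACTA2) set the limit of what could be detected.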

Other observations

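SRF also acts with ternary complex factors on immediate early genes, of which 10 of 11 listed were measured. With Wee1 inhibitor II 7 rose and 1 fell (14.5% and 10.3% of all genes; median 0.78 against 0.12), with 17-AAG 4 rose and none fell (9.93% and 6.8%; median 0.55 against 0.01), and with both drugs 3 rose and 2 fell (16.7% and 11.3%; median 0.24 against 0.11). EGR1, a zinc finger transcription factor gene, had signals of 379 with both drugs, 816 with Wee1 inhibitor II, 1269 with 17-AAG and 155 in control, and an interaction of -4.14 ± 0.50 (adjusted p = 0.00248). Unlike CCN1 and CCN2 it rose with 17-AAG alone (3.04 ± 0.37, adjusted p = 0.00187). IER3, a survival gene, stood at 387 with both drugs against 1999.9, 1273 and 1166 with Wee1 inhibitor II, 17-AAG and in control (interaction -2.49 ± 0.28, adjusted p = 0.00191). Without the dimmest 40% of genes, 1997 of 11865 genes had a called negative interaction, a larger share than over all genes. In this list the interaction was called for 6 of the 10 (60%), all negative, against 6.97% negative and 4.82% positive of all genes. It was called for 3 with equal array medians and when any 1 of 7 arrays was left out, control replicate 1 among them, and for 4 without control replicate 3 or both drugs replicate 1. The rises with Wee1 inhibitor II became 4 without either control or without Wee1 inhibitor II replicate 1 or replicate 3, those with 17-AAG 2 without control replicate 1, and those with both drugs 0 without either control or any 1 array with both drugs.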
